A study of Mus musculus with 24 samples.

Results

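The genes described here are 33 markers of astrocytes, named by symbol with earlier results of these data known, and kept in 2 lists. The identity list holds 19 genes that resting astrocytes express, and the reactivity list holds 14 genes that astrocytes are known to raise after injury or inflammation. Of the 33 symbols, 32 had a row among the 45706 genes of the count table. The symbol Aldoc2 had none. A filter on low counts left 15667 genes to test, among them 28 of the 33 members, 18 of identity and 10 of reactivity. Lcn2, Steap4, Tgm1 and Ptx3 had too few counts to pass and are described by their levels.

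Astrocytes clear glutamate and potassium from the space around synapses, convert glutamate to glutamine, and line blood vessels with endfeet rich in water channels. In the hypothalamus they also take part in the sensing of nutrients and hormones. After injury or inflammation they can raise intermediate filaments, acute phase proteins and cytokine receptors, a state called reactive, in which the transcription factor STAT3 is a known regulator.

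RNA of whole hypothalamus was sequenced in 24 libraries from male mice with diet-induced obesity, housed in pairs and with a mean body weight of 53 g. The 3 groups were PSD-95i, the compound UCCB01-147 at 25 mg/kg against the synaptic scaffold PSD-95, PICK1i, the peptide mPD5 at 56 mg/kg against the PDZ domain protein PICK1, and saline. Compounds and targets were matched from what is known of them, since labels and protocol do not name them together. Mice were injected once a day over 5 days and killed 2 h after the final dose. Each group has 8 libraries, although the protocol gives 6 mice for saline, and separate mice were assumed, so that the p-values measure the spread between these libraries. All groups share the diet and the injections, and no group of lean or uninjected mice is in the series. In tissue of mixed cells, fewer astrocytes and less RNA per astrocyte cannot be told apart.

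Library totals ran from 4762697 to 9228843 counts (median 7628246), and no replicates held identical values. Levels within a gene are given as CPM, counts scaled to a common library total with TMM factors. Saline replicates 2 and 3 stood apart: their summed level over 9 anterior pituitary genes was 55700 to 76100 CPM, against 89.4 to 175 CPM in the other 6 saline libraries. The same sum was 79.7 to 200 CPM in PSD-95i and 37.9 to 238 CPM in PICK1i. PICK1i replicates 1, 2, 5 and 6 also stood apart, with 13.47 to 16.61% of their counts in mitochondrially encoded genes, against 7.882 to 11.17% in the other 20 libraries. Results on astrocyte genes are therefore given with and without these 6 libraries.

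In level, the identity genes lay above most of the reactivity genes. Levels in mixed tissue do not show which cells held the RNA. On a scale per transcript length (TPM), the most abundant members over all libraries were Glul, glutamine synthetase, at 1660 TPM, Ndrg2, a stress-responsive protein enriched in astrocytes, at 1030 TPM, and Agt, the angiotensin precursor, at 417 TPM. The next 5 lay close together and within their spread in saline: Atp1b2, a sodium pump subunit, had 228 ± 38.1 TPM, S100b, a calcium-binding protein, 229 ± 58.7 TPM, Gfap, the astrocyte intermediate filament, 237 ± 80 TPM, and the glutamate transporters Slc1a2 and Slc1a3 219 ± 45.4 and 196 ± 32.7 TPM (SD, n = 8). The lowest identity gene was Sox9, a transcription factor of glia, at 23 TPM. Reactivity genes ran from Gfap at 219 TPM and Serpina3n, an acute phase protease inhibitor, at 135 TPM down to Tgm1, a transglutaminase, at 0.129 TPM. Of the 14 reactivity genes, 11 lay below Sox9.

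**Figure D1:**
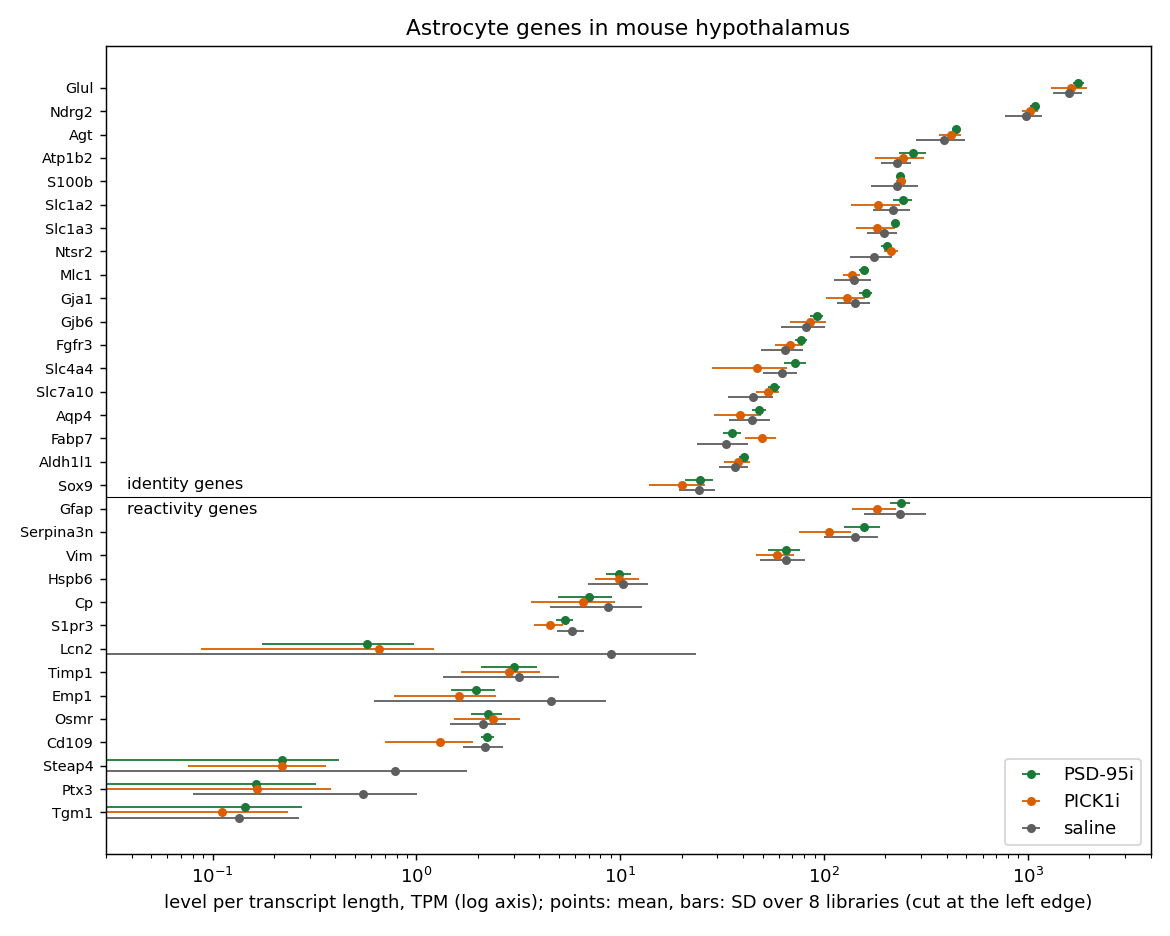
Mean level per transcript length of the 32 astrocyte genes with a row, in TPM on a log axis, for PSD-95i, PICK1i and saline, with bars of 1 SD over 8 libraries, ending at the left edge where they pass it. Identity genes lie between Sox9 at 23 TPM and Glul at 1660 TPM, and most reactivity genes lie below them, with wide bars in saline for Lcn2, Emp1, Steap4 and Ptx3.

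PICK1i against saline asks which astrocyte genes differed after the PICK1 inhibitor. Of 28 tested members, 5 passed the threshold of an adjusted p of 0.05, 3 identity genes that rose and 2 reactivity genes that fell. Fabp7, Ntsr2 and Slc7a10 rose by 0.69, 0.39 and 0.35 on the log2 scale, and Emp1 and Cd109 fell by 1.43 and 0.62. Over all 15667 genes, 9.15% passed in either direction, 4.88% higher and 4.27% lower. Among the 18 identity genes the median log2 fold change was 0.15, with 13 above 0, and among the 10 reactivity genes it was -0.27, with 9 below 0, while the median over all genes was -0.0092. No member had groups free of overlap in this comparison, and 0.179% of all genes did. Library numbers of a group ran in consecutive pairs and the mice were housed in pairs, but whether neighbours shared a cage is not given. Neighbouring libraries had an estimated correlation of 0.141, and with it as a random block in limma-voom Fabp7 and Ntsr2 passed (adjusted p = 0.0456 and 0.0487), while Slc7a10, Cd109 and Emp1 did not (0.0648, 0.0576 and 0.146).

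Markers of the leptomeninges, the membranes around the brain, were lower in value alongside the reactivity genes. All 8 had a log2 fold change below 0 for PICK1i against saline, with a median of -0.73 and 2 past the threshold, where 4.27% of all tested genes fell. Their summed level was 290 to 2270 CPM in PICK1i and 261 to 3700 CPM in saline, and the defining gene Dcn, decorin, held 5.27 to 27.2 CPM in PICK1i and 9.32 to 65.9 CPM in saline. For PSD-95i against saline the median of the 8 was -0.66, all below 0 and 0 past the threshold in edgeR, with 5 at an unadjusted p under 0.05. For PICK1i against saline, 0 of the 8 passed without saline replicates 2 and 3, with a median of -0.58. Without PICK1i replicates 1, 2, 5 and 6, 0 passed and the median was -0.96. Without all 6 libraries, 0 passed and the median was -0.68. The part of meningeal cells in the astrocyte results was not tested.

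Fabp7, the brain fatty acid binding protein (ENSMUSG00000019874, GRCm38 chromosome 10, 57784881 to 57788450, plus strand), ran from 15.6 CPM over a median of 24 to 34.1 CPM in PICK1i, and from 8.2 over 14 to 20.8 CPM in saline. Each of the 8 PICK1i libraries lay above the saline median, but the groups overlapped. The means were 23.5 ± 6.36 CPM in PICK1i and 14.4 ± 3.74 CPM in saline (SD, n = 8), and the log2 fold change was 0.69 ± 0.15 (SE), with an adjusted p of 0.0181. Within PICK1i, replicates 1, 2, 5 and 6 held 26.1 to 34.1 CPM and the other 4 held 15.6 to 21.8 CPM.

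Ntsr2, a neurotensin receptor found on astrocytes (ENSMUSG00000020591, chromosome 12, 16653382 to 16660227, plus strand), ran from 152 over a median of 189 to 211 CPM in PICK1i, and from 95.4 over 144 to 170 CPM in saline. All 8 PICK1i libraries again lay above the saline median, and saline replicates 2 and 3 were lowest, at 97.3 and 95.4 CPM. Its log2 fold change was 0.39 ± 0.10, with an adjusted p of 0.0234. Replicates 1, 2, 5 and 6 of PICK1i lay at 196 to 211 CPM and the other 4 at 152 to 182 CPM.

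Slc7a10, an exchanger of small neutral amino acids such as serine (ENSMUSG00000030495, chromosome 7, 35186385 to 35201114, plus strand), ran from 42.2 over 46.2 to 55.6 CPM in PICK1i, and from 21.8 over 38 to 47.6 CPM in saline. Saline replicates 2 and 3 were lowest, at 21.8 and 28 CPM. The other 6 saline libraries lay at 35.9 to 47.6 CPM, overlapping the PICK1i range from 42.2 to 47.6 CPM. The log2 fold change was 0.35 ± 0.10, with an adjusted p of 0.0367.

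The promoters of these 3 genes are shown because they are the identity genes that passed the threshold with all libraries. That of Gfap is shown because STAT3 acts on this gene. They are RefSeq sequences of GRCm38.p6 from the 250 bases before each start, without bases that GENCODE M21 places in an exon, written 5′ to 3′ on the gene's strand. Searched were TTCNNNGAA, the palindrome that STAT factors bind, and the same arms set 1 base wider, TTC and GAA with 4 bases between them. Capitals mark a match.
Fabp7, chr10:57784673-57784880, plus strand: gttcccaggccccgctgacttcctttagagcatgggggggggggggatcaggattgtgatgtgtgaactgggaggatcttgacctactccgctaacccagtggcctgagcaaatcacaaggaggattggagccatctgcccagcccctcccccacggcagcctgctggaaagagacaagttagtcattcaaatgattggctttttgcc
Ntsr2, chr12:16653220-16653381, plus strand: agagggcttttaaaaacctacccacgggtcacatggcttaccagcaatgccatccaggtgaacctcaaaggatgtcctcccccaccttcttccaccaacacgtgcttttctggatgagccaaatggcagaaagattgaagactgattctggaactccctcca
Slc7a10, chr7:35186135-35186384, plus strand: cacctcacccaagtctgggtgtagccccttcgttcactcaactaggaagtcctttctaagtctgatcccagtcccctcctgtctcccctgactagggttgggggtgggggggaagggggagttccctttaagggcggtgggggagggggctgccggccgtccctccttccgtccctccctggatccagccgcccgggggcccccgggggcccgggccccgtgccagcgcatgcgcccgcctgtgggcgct
Gfap, chr11:102897201-102897450, minus strand: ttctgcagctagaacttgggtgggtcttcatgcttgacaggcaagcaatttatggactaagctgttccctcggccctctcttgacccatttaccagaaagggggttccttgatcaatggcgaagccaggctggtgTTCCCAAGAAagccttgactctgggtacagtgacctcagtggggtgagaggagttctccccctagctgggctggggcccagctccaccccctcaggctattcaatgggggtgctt

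Of 32 members, 28 had a promoter entry, with 36 windows of 250 bases. Read the same on both strands, TTCNNNGAA occurred in 6 of the 36 windows (16.7%), those of Agt, Emp1, Ntsr2, Slc1a3, Steap4 and Tgm1, and in 7.02% of 32851 windows of all genes. The match of Ntsr2 lies among its exon bases, which are not printed. The wider form occurred in 2 of the 36 windows (5.56%), those of Gfap and Lcn2, and in 5.85% of all windows. The matching windows of Emp1 and Lcn2 begin at an exon base of the gene, so 0 of their bases were kept before an exon. No window of a member held both forms. These letter matches describe the windows and are not binding sites shown by these data.

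The remaining identity genes did not pass for PICK1i. Slc4a4, the sodium bicarbonate cotransporter, had the largest fall in value, with 114 over 160 to 242 CPM in PICK1i and 153 over 207 to 236 CPM in saline. Its log2 fold change was -0.28 ± 0.13, with an adjusted p of 0.149. PICK1i replicates 1, 2, 5 and 6 held 114 to 132 CPM of Slc4a4, and the other 4 held 188 to 242 CPM, close to the 6 saline libraries apart from replicates 2 and 3 at 190 to 236 CPM. For the glutamate transporters the log2 fold changes were -0.16 ± 0.11 for Slc1a2 and 0.024 ± 0.075 for Slc1a3, and for Glul 0.13 ± 0.08. The endfoot genes Aqp4, a water channel, and Mlc1, a membrane protein of perivascular endfeet, had -0.11 ± 0.11 and 0.049 ± 0.079, and the gap junction genes Gja1 and Gjb6 -0.045 ± 0.089 and 0.17 ± 0.11. Agt, Fgfr3, a growth factor receptor of astrocytes, and Ndrg2 had 0.22 ± 0.12, 0.21 ± 0.10 and 0.18 ± 0.09. S100b and Atp1b2 had 0.17 ± 0.11 and 0.16 ± 0.11, Aldh1l1, a folate enzyme, 0.13 ± 0.08, and Sox9 -0.20 ± 0.13. The adjusted p of these 14 genes and Slc4a4 ran from 0.149 to 0.864.

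Among the reactivity genes, Cd109, a membrane-anchored protein that binds TGF-beta (ENSMUSG00000046186, chromosome 9, 78615546 to 78716253, plus strand), ran from 1.55 over 4.28 to 5.78 CPM in PICK1i, and from 5.19 over 5.7 to 8.83 CPM in saline. Its means were 4.01 ± 1.46 CPM in PICK1i and 6.33 ± 1.28 CPM in saline, with a log2 fold change of -0.62 ± 0.17 and an adjusted p of 0.0295. The 4 lowest libraries were PICK1i replicates 1, 2, 5 and 6, at 1.55 to 4.13 CPM. The other 4 PICK1i libraries, at 4.43 to 5.78 CPM, overlapped the saline range.

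Emp1, an epithelial membrane protein (ENSMUSG00000030208, chromosome 6, 135362545 to 135383173, plus strand), ran from 1.15 over 2.09 to 4.5 CPM in PICK1i, and from 2.27 over 3.63 to 17.9 CPM in saline. Its log2 fold change was -1.43 ± 0.39, with an adjusted p of 0.0269. The saline mean of 6.77 ± 6.2 CPM was raised by replicates 2 and 3, at 17.9 and 15.2 CPM, while the other 6 saline libraries held 2.27 to 5.74 CPM.

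S1pr3, a receptor for sphingosine phosphate, came close to the threshold without passing it. It ran from 8.86 over 11.1 to 12.6 CPM in PICK1i and from 11.4 over 13.2 to 16 CPM in saline, with all 8 PICK1i libraries below the saline median. Its log2 fold change was -0.27 ± 0.09, with an adjusted p of 0.058. For the intermediate filaments, Gfap ran from 193 over 238 to 423 CPM in PICK1i and from 184 over 304 to 495 CPM in saline, with a log2 fold change of -0.28 ± 0.16 and an adjusted p of 0.258. Vim, vimentin, had -0.030 ± 0.13. The secreted factors Serpina3n, Cp, the ferroxidase ceruloplasmin, and Timp1, an inhibitor of metalloproteases, had -0.34 ± 0.17, -0.40 ± 0.26 and -0.053 ± 0.33. Osmr, the oncostatin M receptor, and Hspb6, a small heat shock protein, had 0.12 ± 0.17 and -0.013 ± 0.17. The adjusted p of these 6 genes ran from 0.186 to 0.97.

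**Figure D2:**
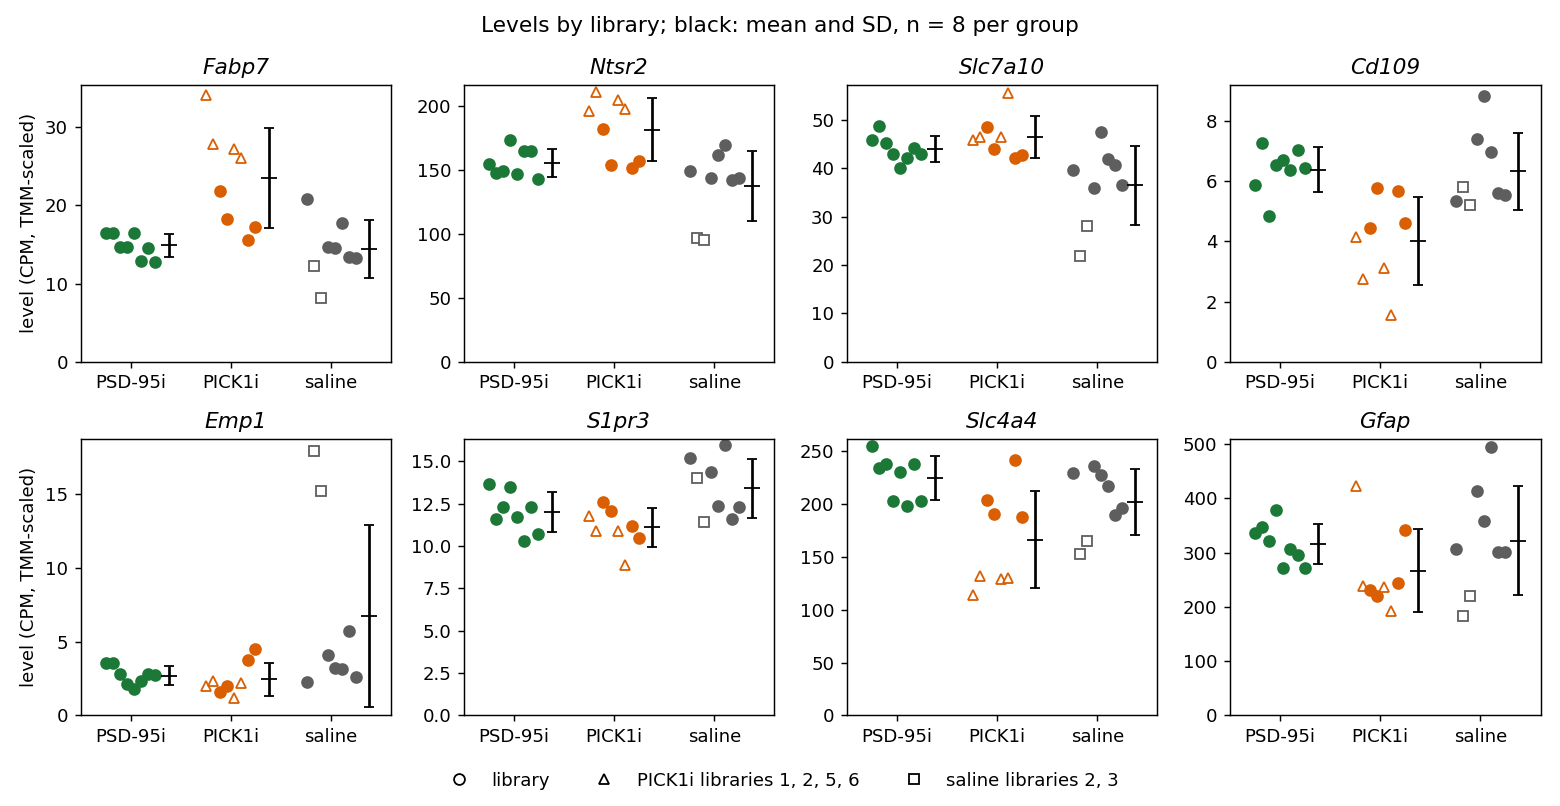
Level of 8 astrocyte genes in each library, in CPM, with PSD-95i, PICK1i and saline from left to right, triangles for PICK1i replicates 1, 2, 5 and 6 and squares for saline replicates 2 and 3. Black bars give the mean and SD of 8 libraries. The triangles lie highest for Fabp7 and lowest for Slc4a4 and Cd109 within PICK1i, and the squares lie lowest for Ntsr2 and Slc7a10 and highest for Emp1 within saline.

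The 5 calls were not kept when the libraries that stood apart were left out, nor in a fit of the 2 groups alone with all their libraries. In that fit the log2 fold changes were 0.69 for Fabp7, 0.39 for Ntsr2, 0.34 for Slc7a10, -0.64 for Cd109 and -1.44 for Emp1, with adjusted p from 0.093 to 0.12. Without saline replicates 2 and 3, 0 of 28 members passed in edgeR, with 7 of 18 identity genes and 4 of 10 reactivity genes at an unadjusted p under 0.05, as had 3839 of all 15820 genes, of which 5 passed. The identity median then was 0.027 and the reactivity median -0.31. Without PICK1i replicates 1, 2, 5 and 6, again 0 members passed, with 2 identity genes and 1 reactivity gene at an unadjusted p under 0.05, as had 1961 of all 16121 genes, of which 0 passed. In that setting the identity median was 0.13 and the reactivity median -0.21. With all 6 libraries left out these medians were -0.0050 and -0.25. The 5 log2 fold changes without the 2 saline libraries were 0.56 for Fabp7, 0.25 for Ntsr2, 0.19 for Slc7a10, -0.68 for Cd109 and -0.49 for Emp1, with adjusted p from 0.0628 to 0.231. Without all 6 libraries they were 0.21, 0.079, 0.13, -0.37 and -0.23, each with the sign unchanged and adjusted p from 0.553 to 0.847.

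Single libraries also moved the calls. Fabp7 passed without any 1 library. Ntsr2 was lost without PICK1i replicate 5 (adjusted p = 0.0542) or saline replicate 2 (0.0526). Emp1 was lost without PICK1i replicate 5 or 6 or saline replicate 2 or 3, with adjusted p from 0.0518 to 0.0782. Cd109 was lost without PICK1i replicate 2, 5 or 6 or saline replicate 2 or 4 (0.0512 to 0.0718), and Slc7a10 without PICK1i replicate 1, 3, 5 or 6 or saline replicate 2, 3 or 4 (0.0515 to 0.0776).

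Saline replicates 2 and 3 were low within saline for the identity list. All 18 identity genes had their lowest saline value in one of them, and for 17, all but Sox9, both were the lowest. How many of all tested genes did the same is not given here, so this is not read as particular to astrocyte genes. In these 2 libraries the summed identity level was 4530 to 5160 CPM, against 6680 to 7080 CPM in the other 6 saline libraries. Across PSD-95i the same sum was 6630 to 7310 CPM, and across PICK1i 5990 to 7420 CPM. Summed levels of 8 neuronal and 9 oligodendrocyte markers were also low in these 2 libraries, at 2650 to 2900 and 2930 to 3890 CPM, against 3540 to 3970 and 5230 to 7320 CPM in the other 6. The part of these libraries in the astrocyte results was not tested beyond leaving them out.

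Of the reactivity genes, 6 had both of their highest saline values in the same 2 libraries: Lcn2, Emp1, Steap4, Timp1, Ptx3 and Hspb6. The share of all genes that did so is not given here. Lcn2, the iron-trapping lipocalin, held 169 and 81 counts there, or 19.6 and 13.6 CPM, and 3 to 6 counts, at most 1.04 CPM, in the other 6 saline libraries. Steap4, a metalloreductase, held 4.17 to 4.18 CPM there and at most 0.638 CPM in the other 6, and Ptx3, a long pentraxin, 1.17 to 1.51 CPM against 0.123 to 0.521 CPM. Lcn2 reached 0.61 CPM at most in PSD-95i and 0.767 CPM in PICK1i. Tgm1 had 0 to 4 counts in every library. Gfap and Vim went the other way, with their lowest saline values in these 2 libraries.

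**Figure D3:**
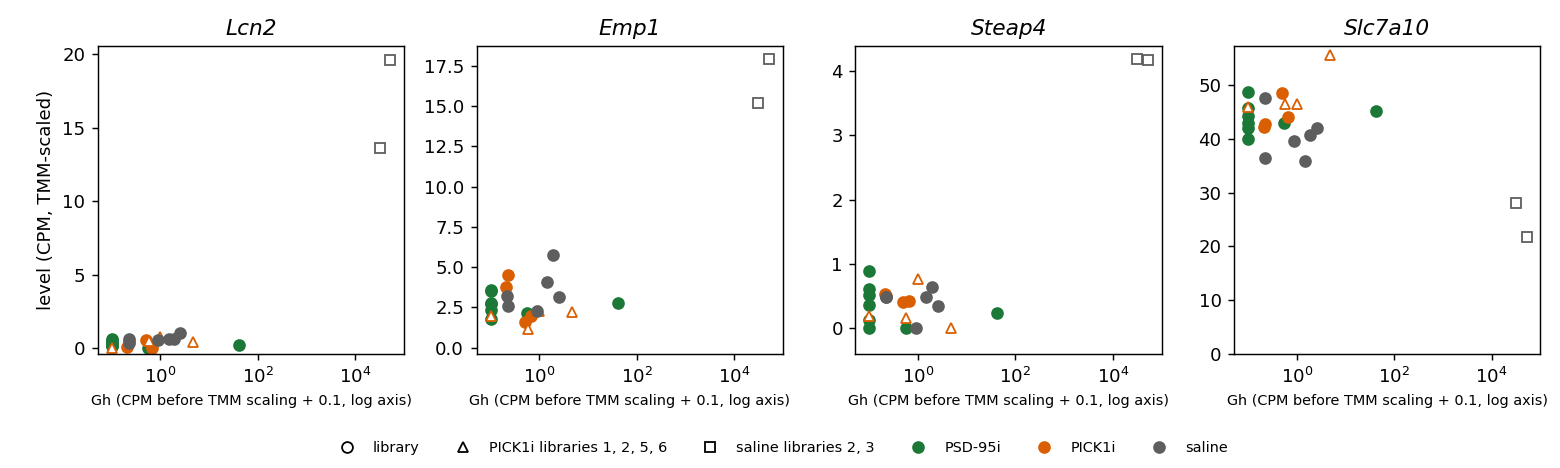
Levels of Lcn2, Emp1, Steap4 and Slc7a10 in CPM against the pituitary hormone gene Gh, in CPM before TMM scaling plus 0.1 on a log axis, with each point 1 library and colours for PSD-95i, PICK1i and saline. Squares mark saline replicates 2 and 3, which lie apart at the right, with the highest levels of Lcn2, Emp1 and Steap4 and the lowest of Slc7a10.

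In PICK1i replicates 1, 2, 5 and 6, members moved in both directions relative to the other 4 PICK1i libraries. All 4 lay above the others for S100b, Ntsr2 and Fabp7 and below them for Slc4a4 and Cd109. The share of all genes that split in this way is not given here, so the split is not read as particular to astrocyte genes. For S100b, the 4 libraries held 209 to 246 CPM and the others 167 to 179 CPM. The summed oligodendrocyte level was 6790 to 10100 CPM in these 4 and 5220 to 7670 CPM in the others, and the summed tanycyte level 139 to 305 and 246 to 276 CPM. The part of mitochondrial share and of these other cell types in the astrocyte results was not tested.

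PSD-95i against saline asks the same of the PSD-95 inhibitor. In edgeR 0 of 28 members and 0% of all genes passed, DESeq2 and limma-voom also called 0 members, and 3 members had an unadjusted p under 0.05, as had 1719 of all 15667 genes, a like share. These were Fgfr3, at 121 over 130 to 142 CPM in PSD-95i and 75 over 120 to 128 CPM in saline, Slc7a10, at 40 over 43.7 to 48.7 CPM in PSD-95i and 21.8 over 38 to 47.6 CPM in saline, and Emp1. Emp1 ran from 1.77 over 2.75 to 3.56 CPM in PSD-95i, all 8 libraries below the saline median of 3.63 CPM, with a log2 fold change of -1.32 ± 0.38 and an adjusted p of 0.341. For Fgfr3 and Slc7a10 the log2 fold changes were 0.23 ± 0.10 and 0.27 ± 0.10, with adjusted p of 0.425 and 0.379. Groups free of overlap occurred for 0 members and 0.0574% of all genes. Gfap averaged 316 ± 37 CPM in PSD-95i and 322 ± 100 CPM in saline, a log2 difference of -0.030 with a 95% interval of -0.36 to 0.30.

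Of the 18 identity genes, 17 had a log2 fold change above 0 for PSD-95i against saline, with a median of 0.12, and Sox9 was the exception. Without saline replicates 2 and 3, 9 of 18 were above 0 and the median was -0.0012. The reactivity median was -0.099 with all libraries and -0.13 without these 2. Since PSD-95i and PICK1i were set against the same saline libraries, their fold changes are not independent of each other.

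**Figure D4:**
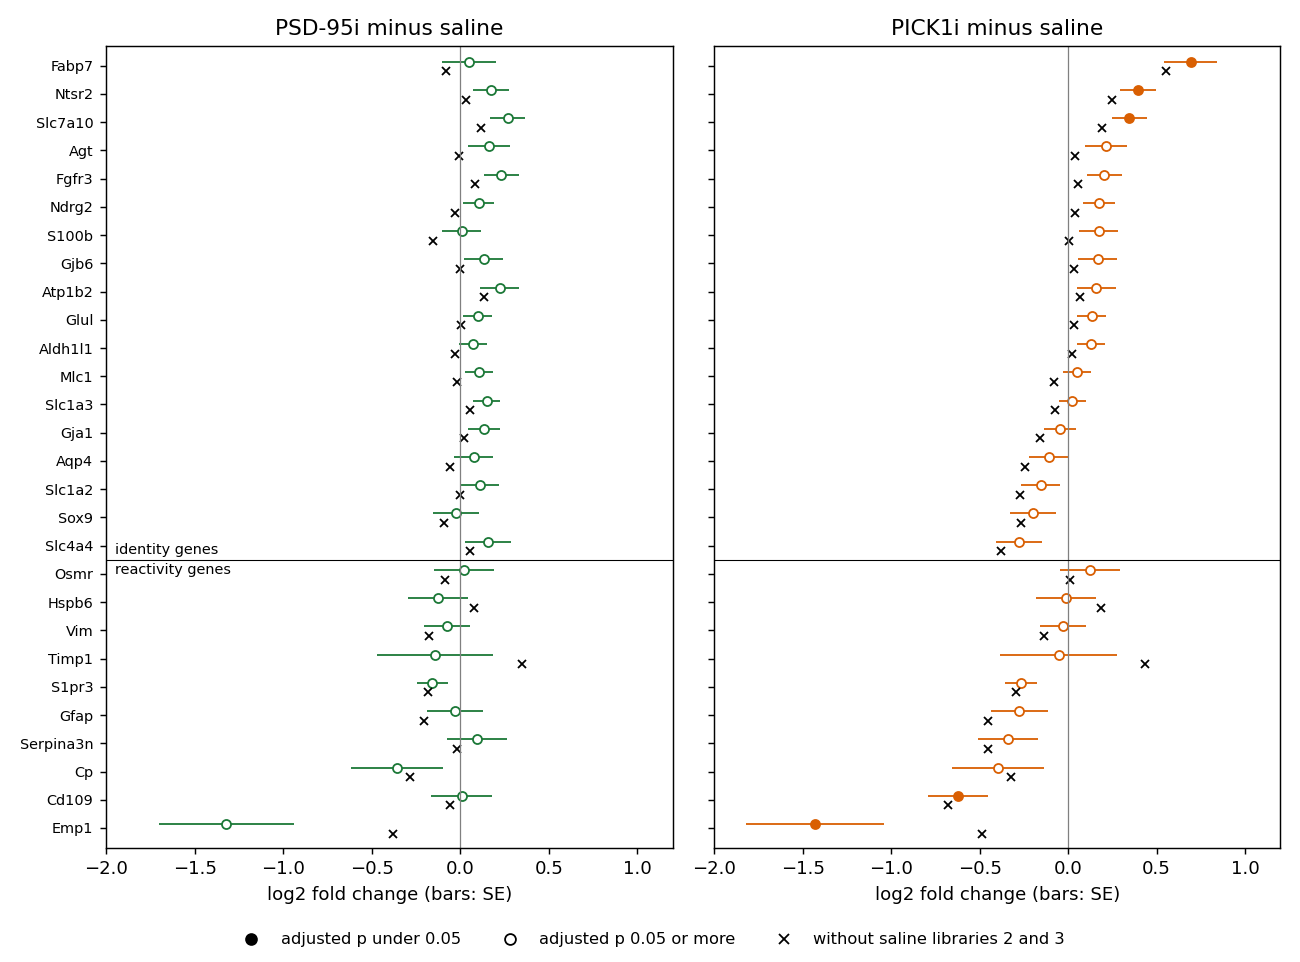
Log2 fold changes with SE of the 28 tested members, for PSD-95i minus saline on the left and PICK1i minus saline on the right, with filled points past an adjusted p of 0.05 and crosses for values without saline replicates 2 and 3. The crosses lie left of the points for the identity genes, and for Emp1 they move to -0.38 in PSD-95i and -0.49 in PICK1i.

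PSD-95i against PICK1i compares the inhibitors with each other. In edgeR 0 of 28 members and 0% of all genes passed with all libraries in the fit, although 6 members and 3789 genes had an unadjusted p under 0.05 and the smallest adjusted p was 0.0513. Fabp7 was lower in value in PSD-95i, at 12.8 over 14.7 to 16.5 CPM against 15.6 over 24 to 34.1 CPM in PICK1i, with a log2 fold change of -0.64 ± 0.15 and an adjusted p of 0.0513. Cd109 was higher in value, at 4.84 over 6.49 to 7.27 CPM in PSD-95i and 1.55 over 4.28 to 5.78 CPM in PICK1i, with 0.63 ± 0.17 and an adjusted p of 0.0515. Slc4a4 held 198 over 232 to 255 CPM in PSD-95i and 114 over 160 to 242 CPM in PICK1i, with 0.43 ± 0.13 and an adjusted p of 0.0589. No member had groups free of overlap, and 0.0511% of all genes did. All 8 PSD-95i libraries lay on one side of the PICK1i median for each of the 3 genes.

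This comparison does not use saline, but the saline libraries enter its estimate of spread. Without saline replicates 2 and 3, Fabp7, Cd109 and Slc4a4 passed, with log2 fold changes of -0.64, 0.62 and 0.44 and adjusted p of 0.0324, 0.0351 and 0.0351, and 1208 of 15820 genes passed in all. DESeq2 called 2 members and limma-voom 3, with all libraries. Their counts over all genes are not given here, so these calls are not read as particular to astrocyte genes. Without PICK1i replicates 1, 2, 5 and 6, 0 members and 0 of 16121 genes passed in edgeR. An unadjusted p under 0.05 was found for 0 of 28 members and for 512 of all 16121 genes. The 3 log2 fold changes then were -0.29, 0.31 and 0.13. Serpina3n, Slc1a2 and Ntsr2 were the other members with an unadjusted p under 0.05, with 0.43 ± 0.17, 0.27 ± 0.11 and -0.22 ± 0.10.

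**Figure D5:**
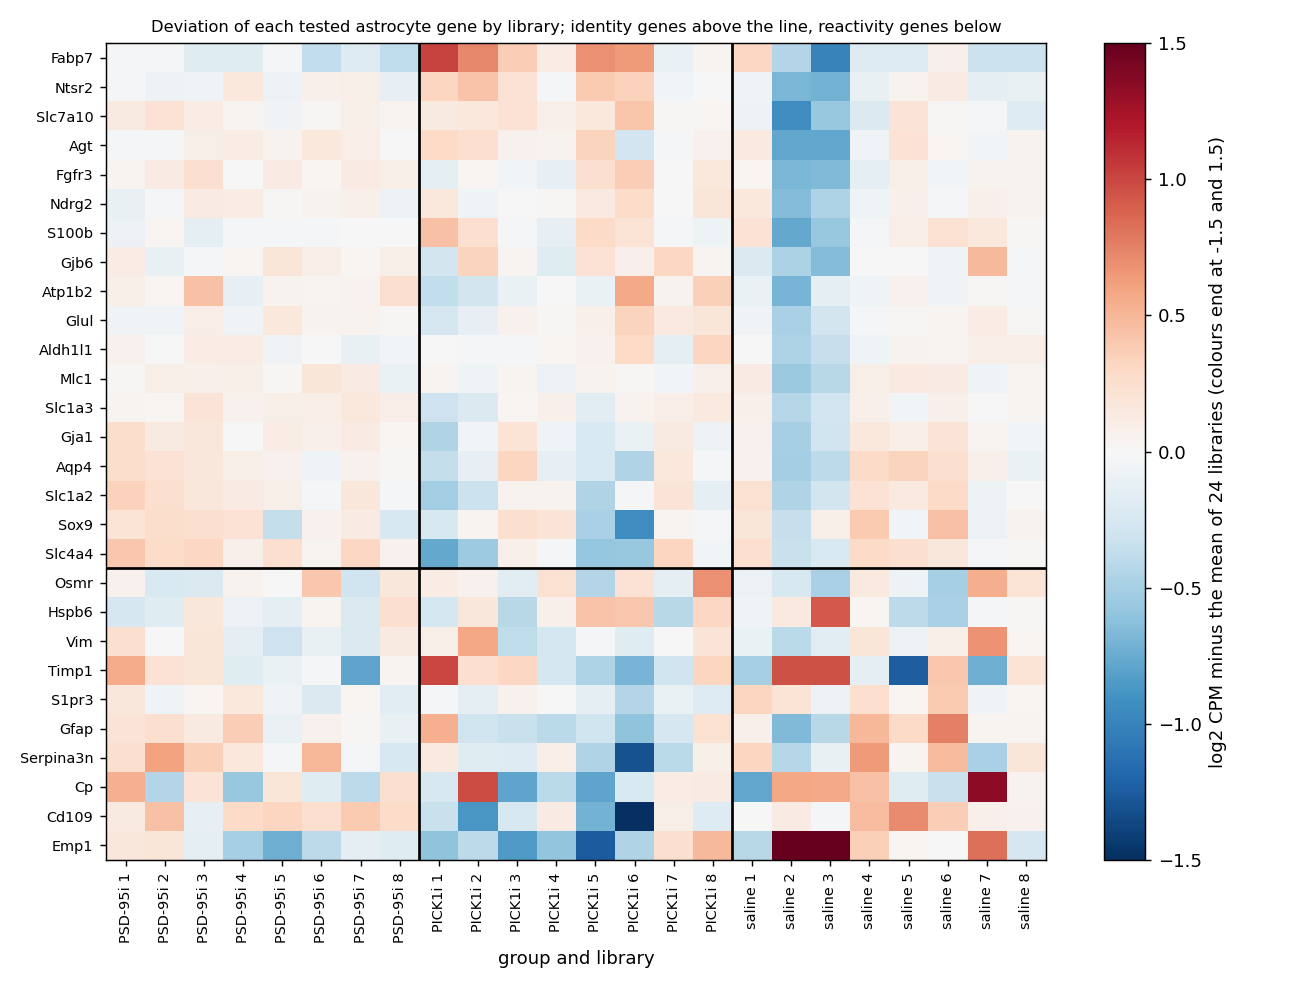
Deviation of each tested member from its mean over 24 libraries, in log2 CPM, with the libraries of PSD-95i, PICK1i and saline from left to right and identity genes above the line. Saline replicates 2 and 3 are blue for nearly all identity genes and red for Emp1 and Timp1, and PICK1i replicates 1, 2, 5 and 6 are red for Fabp7 and Ntsr2 and blue for Slc4a4.

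With all libraries kept, the identity genes varied less among PSD-95i libraries than among the others. Their median SD of log2 CPM within a group was 0.086 in PSD-95i, 0.20 in PICK1i and 0.28 in saline, against 0.14, 0.23 and 0.21 for all tested genes. The reactivity genes had 0.22, 0.42 and 0.42. The saline and PICK1i SDs include the 6 libraries that stood apart, and SDs without them are not given here. The summed identity level was 6680 to 7080 CPM in the other 6 saline libraries and 6680 to 7090 CPM in the other 4 PICK1i libraries. Across the 8 PSD-95i libraries it was 6630 to 7310 CPM. These SDs were not tested against each other.

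At the level of transcripts, 69 transcripts of members were tested and 3 passed for PICK1i against saline, where 2% of 37955 transcripts did. They were Fabp7-201, with a log2 fold change of 0.76 ± 0.14 and an adjusted p of 0.0349, Ntsr2-201, the sole form of that gene counted above 1 CPM, with 0.38 ± 0.10 and 0.0465, and Emp1-202, with -1.40 ± 0.38 and 0.0472. The other form of Fabp7, Fabp7-202, held 44.8% of the gene's counts and had 0.58 ± 0.19 with an adjusted p of 0.0758. None of the 3 passed once the 2 saline or the 4 PICK1i libraries were left out. Gfap was divided between Gfap-201, with 77.6% of its counts, and Gfap-202, with 22.3%, which had -0.27 ± 0.16 and -0.34 ± 0.16 for PICK1i against saline. Of Slc7a10, 48.6% of counts were assigned to Slc7a10-202, annotated as a target of nonsense-mediated decay, and 44.1% to the coding form Slc7a10-201. In both comparisons of PSD-95i, 0 transcripts of members and 0% of all transcripts passed.

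Further astrocyte genes outside the 33 showed few calls for PICK1i against saline. Of 35 tested, 1 rose and 1 fell, against 4.88% and 4.27% of all tested genes, with a median log2 fold change of 0.12. Mt3, a brain metallothionein, rose by 0.56 ± 0.11 (adjusted p = 0.0175), with 176 over 223 to 311 CPM in PICK1i and 112 over 170 to 184 CPM in saline. Nfia, a transcription factor of glial development, fell by 0.22 ± 0.07 (adjusted p = 0.0476). Aldoc, the aldolase of astrocytes, did not pass, at 0.25 ± 0.09. Without saline replicates 2 and 3 neither call was kept: Mt3 had 0.43 (adjusted p = 0.054), Nfia -0.20 (0.0926) and the list a median of 0.013. Without the 4 PICK1i libraries Mt3 had 0.29 (0.373) and Nfia -0.13 (0.486). Among 22 tested genes of reactive states, 0 passed in edgeR, 4 had an unadjusted p under 0.05, against 4509 of all 15667 genes, and the median was -0.25. Nes, the filament nestin, came nearest, at -0.53 ± 0.17 with an adjusted p of 0.05, and had 12.9 over 18.6 to 30.9 CPM in PICK1i and 20.5 over 24.8 to 50.2 CPM in saline. Without saline replicates 2 and 3 Nes had -0.24 and the list a median of -0.098.

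Of 9 tested genes of the STAT3 pathway, 1 rose and 3 fell for PICK1i against saline, with a median of -0.29. Over all tested genes, 4.88% rose and 4.27% fell. Cntfr, a receptor for ciliary neurotrophic factor, rose by 0.36 ± 0.09 (adjusted p = 0.0197). Il6st, the receptor chain shared by interleukin 6 family cytokines, Stat3 itself and the kinase gene Jak1 fell, with log2 fold changes of -0.38 ± 0.09, -0.36 ± 0.09 and -0.29 ± 0.08 (adjusted p = 0.0215, 0.0219 and 0.0309). Stat3 held 48.8 over 59.5 to 78.2 CPM in PICK1i and 62.1 over 77.2 to 90.3 CPM in saline. Summed over the pathway list, PICK1i replicates 1, 2, 5 and 6 lay at 515 to 532 CPM and the other 4 at 563 to 609 CPM, while saline replicates 2 and 3 lay at 666 to 687 CPM and the other 6 saline libraries at 563 to 634 CPM. None of the 9 passed once the 2 saline or the 4 PICK1i libraries were left out, and Stat3 then had -0.32 and -0.18. The list median was -0.047 without the 2 saline libraries, -0.11 without the 4 PICK1i libraries and -0.038 without all 6.

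Tanycytes, the radial glia of the third ventricle wall, also express Vim and other genes of both lists. Of 13 tested tanycyte genes, 4 fell for PICK1i against saline, where 4.27% of all tested genes did. Deptor, Fgf10 and Mest, which were among them, had log2 fold changes of -0.54, -0.66 and -1.54, with adjusted p from 0.0225 to 0.0253, and the median for the list was -0.35. The summed tanycyte level was 243 to 400.2 CPM in PSD-95i, 139 to 305 CPM in PICK1i and 259.9 to 426 CPM in saline. Rax, a defining tanycyte gene, held 0.443 to 8.66 CPM in PICK1i and 2.21 to 7.89 CPM in saline. No tanycyte gene passed once the 2 saline or the 4 PICK1i libraries were left out. Without the 2 saline libraries Deptor had -0.51, Fgf10 -0.62 and the list a median of -0.39, while Mest had -0.36. Without the 4 PICK1i libraries the values were -0.34 for Deptor, -0.41 for Fgf10, -1.33 for Mest and -0.33 for the list median. The part of tanycytes in the astrocyte results was not tested.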

How the data were processed

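Whole hypothalamus of 24 mice was sequenced in 3 groups of 8 libraries, grouped by label. The authors deposited estimated counts, one table by gene and one by transcript, without normalisation, made from 52-base reads. Per the submitters' processing notes the tools were bcl2fastq 2.20.0, STAR and Salmon on GRCm38. Versions of these aligners, their annotation and any strand setting were not given in the sources used here. Positions, transcript names and lengths came from GENCODE M21, and TPM was computed from the transcript table with those lengths.

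Estimated counts were rounded, filtered by filterByExpr (minimum count 10), TMM-scaled and tested with edgeR 4.0.16 (quasi-likelihood, R 4.3.3), in 1 fit of 24 libraries with 21 residual degrees of freedom. Tests were two-sided, with Benjamini-Hochberg adjustment over all 15667 genes or 37955 transcripts and a threshold of 0.05. SE is the size of the log2 fold change divided by the square root of F, and log2 CPM used a prior count of 2. The procedure was tested on simulated data.

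Other settings tried were no filter or a stricter one, RLE size factors, robust estimation, the replicate number as a block, DESeq2 1.42.0, limma-voom (limma 3.58.1), the same with a random block of neighbouring library numbers, separate fits of 2 groups, and leaving out libraries. Every member is described. Of 4 further lists (other astrocyte, other reactive, STAT3 pathway and tanycyte genes) up to 4 genes with the smallest p were open to naming, with defining markers of other cell types. The members and lists were chosen with earlier results of these data known. The values of 1 tanycyte gene are not reported here.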

Additional observations from a re-analysis of the deposited data

Results flagged for a closer look

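Within groups of 8 libraries, a library was picked out where its gap to the nearest other, divided by the range of the group, exceeded the critical value of Dixon’s test. Of 84 combinations of gene and group, 6 did so, and chance gives about 5%. Saline replicate 7 was high for Gjb6 at 101 CPM (others 45.4 to 71 CPM), for Vim at 82.3 CPM (others 38.9 to 58.7 CPM) and for Cp at 32.8 CPM (others 7.35 to 19.2 CPM). PICK1i replicate 2 was also high for Cp, at 25.5 CPM, with the others at 7.25 to 14 CPM. Saline replicate 2 was low for Atp1b2 at 211 CPM, with the others at 311 to 358 CPM, and saline replicate 3 was high for Hspb6 at 14.7 CPM, with the others at 5.38 to 8.45 CPM. Saline replicate 7 also had the highest summed leptomeningeal level in saline, 3696 CPM with the others at 261.1 to 1632 CPM, and the highest endothelial and mural sum, 516.6 CPM with the others at 220.3 to 325.6 CPM. PICK1i replicate 2 had the highest leptomeningeal sum in PICK1i, 2270 CPM with the others at 289.7 to 1643 CPM. The part of these cells in the values above was not tested. None of the 5 astrocyte genes named passed the test in any of the 3 comparisons.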

How the results depend on the processing

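For PICK1i against saline, 5 members passed, and 5 with RLE size factors, the stricter filter, robust estimation and DESeq2, 4 with limma-voom, and 6 with no filter, where Lcn2 had a log2 fold change of -3.63. The count was 2 in limma-voom with a random block of neighbouring library numbers, and 0 in a fit of the 2 groups alone, without saline replicates 2 and 3, without PICK1i replicates 1, 2, 5 and 6 and without all 6. Leaving out 1 library gave 1 to 7, with 1 without PICK1i replicate 5 or saline replicate 2, 2 without PICK1i replicate 6, 3 without saline replicate 3 or 4 and 7 without PICK1i replicate 7. Over all genes, 1434 of 15667 passed with all libraries and 5 of 15820 without the 2 saline libraries. Without the 4 PICK1i libraries 0 of 16121 genes passed, and without all 6 libraries 0 of 15992. All-gene counts with RLE, other filters, robust estimation, DESeq2, limma-voom, 2 groups alone or 1 library left out are not given here. Moves in the member count are therefore not read as particular to astrocyte genes. Of transcripts, 3 passed, and 0 once the 2 saline or the 4 PICK1i libraries were left out.

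For PSD-95i against PICK1i, 0 members passed, against 2 with robust estimation, 2 with DESeq2, 3 with limma-voom, 3 without saline replicates 2 and 3, and 0 to 4 when 1 library was left out, with 3 each without PICK1i replicate 3 or 4 or saline replicate 2, 2 without saline replicate 3, 4 without PICK1i replicate 7 and 1 without PICK1i replicate 8. Over all genes, 0 of 15667 passed for PSD-95i against PICK1i with all libraries and 1208 of 15820 without saline replicates 2 and 3. All-gene counts with robust estimation, DESeq2, limma-voom or 1 library left out are not given here. For PSD-95i against saline the member count was 0 in every alternative run. Over the 28 members and 3 comparisons, 2948 values under an alternative stayed on their side of the threshold, 42 dropped below it, 33 rose above it and 0 called values changed sign. The cause of these changes was not tested.

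Nothing in the labels says that replicate numbers pair mice. Same-numbered libraries deviated with correlations of -0.194 to 0.15, over 0.1 in 5 of 24 pairs, which cannot settle whether they do. With the replicate number as a block, 5 members and 1127 genes passed for PICK1i against saline, and 0 members in the other comparisons. Depth limits Lcn2, Steap4, Ptx3 and Tgm1, whose counts were mostly single digits. Some tested genes were also thin: Timp1 averaged 9.12 counts in PICK1i, 9.75 in PSD-95i and 10.5 in saline. In PICK1i, Emp1 averaged 17.4 counts and Cd109 28.6, each with 7 in the lowest library.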
